A study of Mus musculus with 84 samples.

Results

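The clustered protocadherins are a family of cell-surface adhesion genes that lie side by side on mouse chromosome 18 in an alpha, a beta and a gamma cluster. All genes on that chromosome with a symbol that starts with Pcdha, Pcdhb or Pcdhg and ends in a number were taken, with the gamma A and gamma B genes counted as gamma. They numbered 58 of the 43629 genes in the table, namely 14 alpha, 22 beta and 22 gamma genes. The gamma genes divide into 12 of type A, 7 of type B and 3 of type C, and 2 alpha genes, Pcdhac1 and Pcdhac2, are also of type C. Read literally, with the number or the letter c directly after the cluster's letter, the same choice would give 39 genes and no gamma A or B. RNA was sequenced from the ventrolateral striatum of 84 naive mice of the SOT and NOT strains, all untreated S4 adults by the series' design text. By their labels 44 animals, 21 females and 23 males, are High Drinker and 40 animals, 18 females and 22 males, are Low Drinker, without a label for each animal's strain, exact age or family. Each library is 1 animal, and p-values treat the animals as independent.

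Clustered protocadherins are single-pass membrane proteins with cadherin repeats on the outside of the cell. In the alpha and gamma clusters each gene starts from a promoter and a large variable exon of its own, which is spliced to a set of constant exons shared by the whole cluster, whereas each beta gene is coded by an exon of its own. A single neuron typically uses only a few of the alpha, beta and gamma A and B genes, chosen largely at random, while the C-type genes are expressed more broadly. The proteins bind matching copies on neighbouring membranes, which lets branches of one neuron recognise and avoid each other, and the gamma cluster is also known for its part in neuron survival. Bulk tissue averages these choices over many cells, so that a lower level from fewer cells of a type and one from less RNA per cell cannot be told apart.

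Shared exons set which reads could count for a member. In the deposited coordinates (mm10, 1-based) the alpha cluster runs from 36930184 to 37187661, the beta cluster from 37264938 to 37524479 and the gamma cluster from 37661793 to 37841873. All 14 alpha genes hold the same 2860 bases at their 3' end, which make up 37.96% to 54.9% of the exon bases of each gene (median 53.4%). All 22 gamma genes hold the same 2116 bases, and 27.8% to 66.8% of their exon bases are shared with other gamma genes (median 44.7%). Pcdhga4 is the gene with the highest shared part, since it also overlaps Pcdhgb1, and only 1570 of its bases are its own. In the beta cluster, 20 of 22 genes share no exon base, and Pcdhb21 and Pcdhb22 share 455 bases. The counts show how shared exons were treated. Gm42416, Gm37013, Gm37388 and Gm38182, transcripts of the locus whose exons lie wholly (100%) within exons of other genes on the same strand, had a total count of 0 over all 84 libraries. A read inside a shared exon therefore added to no gene, and the values of alpha and gamma members are those of exon bases of their own. These are not always the variable exon alone. In Pcdha11, 852 exon bases lie opposite Gm10544, which starts at 37159854, downstream of the start of Pcdhac2. How many own bases of other members, such as Pcdhgc5 with 4606, lie outside the variable exon was not counted. Pcdha4 keeps 494 of its 5768 exon bases, because Gm42416 covers most of its variable exon, and it had 48 reads in all libraries together, so its level was not measurable here. It was the only member that failed the filter on low counts, and 57 members were tested. Exons on the opposite strand did not remove reads. All 2613 own bases of Pcdhga10 are overlapped by the antisense gene Gm26672, and Pcdhga10 still had 30336 reads. Gm26672 itself had 5387 reads. It also overlaps Pcdhga11, Pcdhga12 and Pcdhgb7. Gm38225, which lies wholly (100%) within exons of Pcdha4 on the opposite strand, had 495 reads. By these counts reads were assigned by strand, although the sources used here do not state the setting. The part of Gm26672 in the values of the 4 members it overlaps was not tested.

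Library totals ran from 22190363 to 41300401 counts with a median of 31697635. The sample numbers run in 3 sets, taken here as sheet sets, with 30, 11 and 3 High Drinker and 18, 19 and 3 Low Drinker animals, and set was a term in the tests. Markers of medium spiny neurons, the main cell of the striatum, summed to between 230 and 10786 CPM (counts scaled to library size with TMM factors), and those of cortical glutamatergic neurons to between 136 and 2988 CPM. No marker of 8 cell type lists passed the edgeR line test in either direction (at an unadjusted p under 0.05, 2 astrocyte markers were higher and 1 choroid plexus marker was lower), and the serotonergic list alone had a marker (1 of 3) that was at 0 in most libraries. Low Drinker libraries 32, 33 and 34 had the lowest medium spiny sums, and High Drinker library 17 had the lowest cortical sum. Low Drinker library 8 had the lowest total of all 84 libraries in each protocadherin cluster, at 8.59 CPM in alpha, 100.2 CPM in beta and 63.7 CPM in gamma. Leaving these 5 libraries out, the lowest totals of any animal were 40.8, 127 and 164 CPM. Library 8 held the lowest value in 13 of 13 tested alpha, 12 of 22 beta and 22 of 22 gamma members. Its medium spiny sum of 5829 CPM ranked 65 and its cortical sum of 414 CPM ranked 4 of 84 from the lowest.

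Levels were compared between genes as CPM per kb of exon held by no other gene on the same strand. By this measure 3 C-type genes stood highest. Pcdhgc5 was at 25.9 ± 5.88 CPM per kb (SD, n = 84), Pcdhgc3 at 12.04 ± 2.76 and Pcdhac2 at 10.8 ± 2.82. All 3 lie at the end of their clusters that holds the constant exons. The other C-type genes were among the rest, with Pcdhgc4 at 3.70 ± 0.899 and Pcdhac1 at 1.31 ± 0.398 CPM per kb. Pcdhac2 alone held 39.1% ± 2.41 of the summed alpha level per kb (mean and SD over 84 animals), and Pcdha12, the gene with the next highest alpha level, held 13.9% ± 2.15. The lowest tested alpha gene was Pcdha8 at 0.300 ± 0.175 CPM per kb, and the median alpha gene stood at 1.30.

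The beta cluster had no such leader. Pcdhb20 was highest at 4.66 ± 0.751 CPM per kb and held 10.1% of the cluster, and Pcdhb17 (4.32 ± 0.721) and Pcdhb9 (4.25 ± 0.595) differed from it by less than 1 SD. Pcdhb1, the first gene of the cluster, was lowest of all tested members at 0.194 ± 0.133 CPM per kb. The median gene stood at 1.86 in beta and 3.15 in gamma. Among the gamma A and B genes, Pcdhga4 led with 6.96 ± 1.95 CPM per kb and Pcdhgb5 was lowest at 0.912 ± 0.307. Pcdhgb8, annotated as a polymorphic pseudogene, was counted in all 84 libraries, at 1.36 ± 0.600 CPM per kb.

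**Figure D1:**
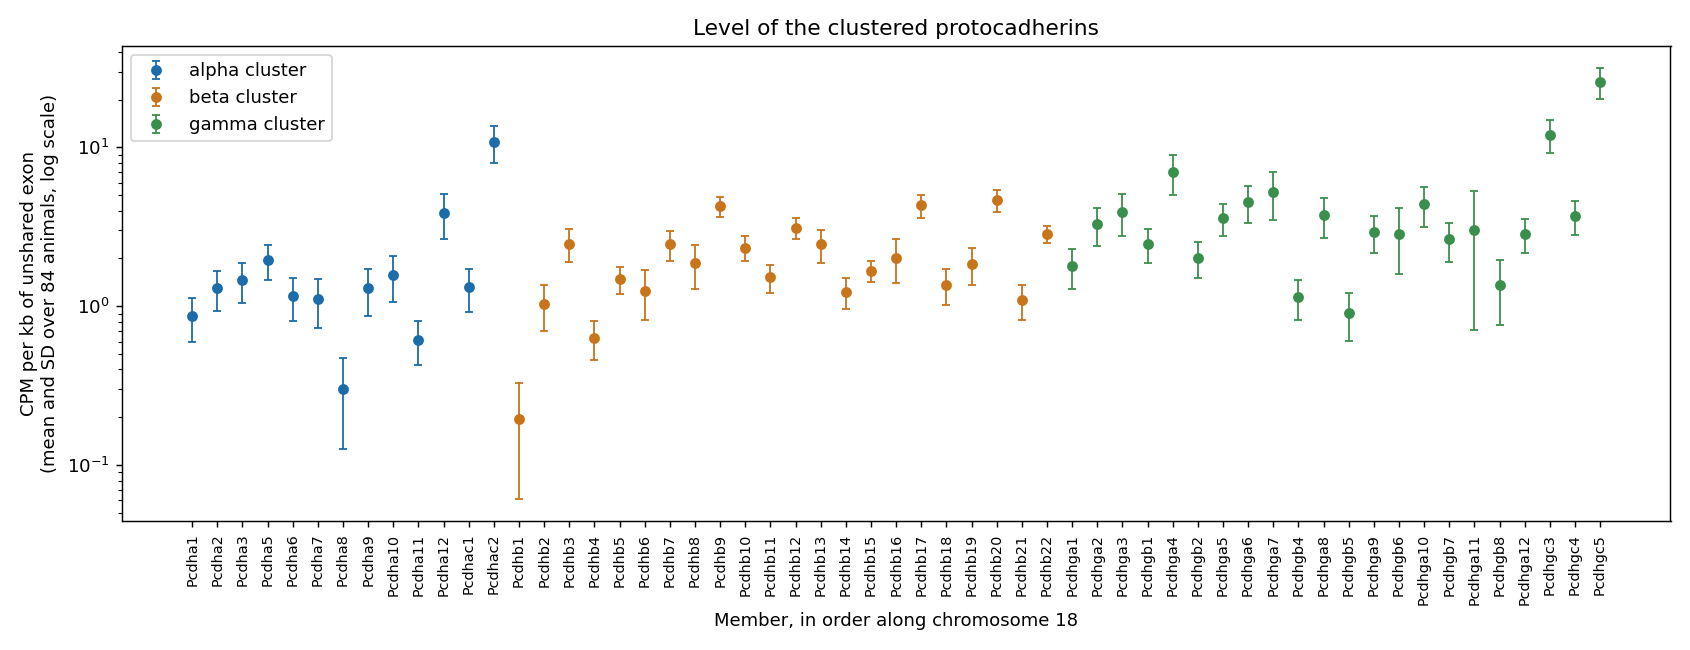
Level of the 57 tested members in CPM per kb of unshared exon on a log axis, in order along chromosome 18 (points are means and bars SD over 84 animals). Pcdhac2, Pcdhgc3 and Pcdhgc5 at the ends of the alpha and gamma clusters stand above 10 CPM per kb, and Pcdhb1 is lowest at 0.194.

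The summed CPM of each cluster was also divided by the summed own exon length of its members. This gives an average per kb and not a cluster total, unlike the summed levels per kb behind the shares above. By this average the gamma cluster was at 5.03 ± 1.01 CPM per kb, alpha at 2.16 ± 0.534 and beta at 2.07 ± 0.317 (SD, n = 84). The order of alpha and beta depends on the length used, since with the full exon length alpha was at 0.964 and gamma at 2.88 CPM per kb. In High Drinker animals the summed gamma level ran from 180 CPM through a median of 364 to 477 CPM. In Low Drinker animals it ran from 63.7 CPM through a median of 312 to 433 CPM. The ranges overlapped, and 37 of 44 High Drinker animals lay above the Low Drinker median. The beta sum ran from 150 through 201 to 252 CPM in the High Drinker group and from 100.2 through 179 to 254 CPM in the Low Drinker group, again with 37 of 44 above the Low Drinker median. The alpha sum ran from 41.6 through 79.3 to 111 CPM against 8.59 through 71.7 to 109 CPM, with 28 of 44 above. In means, the gamma sum was 359 ± 55.9 CPM over 44 High Drinker animals and 310 ± 70.1 CPM over 40 Low Drinker animals (SD), and without the 5 libraries it was 359.7 ± 56.1 against 321 ± 58.1 CPM. In each cluster the means lay closer together than 1 SD of a single group.

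Between the lines, 12 of the 58 members rose in High Drinker animals and 0 fell, with edgeR's quasi-likelihood test and Benjamini-Hochberg adjustment over all 17071 tested genes at a threshold of 0.05. Of all tested genes, 1.86% were called higher, 2.08% lower and 3.94% in either direction by the same rule. The members that rose were 3 beta genes (Pcdhb7, Pcdhb13 and Pcdhb18), 4 gamma A genes (Pcdhga1, Pcdhga2, Pcdhga3 and Pcdhga11) and 5 gamma B genes (Pcdhgb1, Pcdhgb2, Pcdhgb5, Pcdhgb6 and Pcdhgb7). No alpha gene and no C-type gene passed. The changes were small, with log2 fold changes from 0.20 to 0.78 (median 0.32) and 34 to 40 of 44 High Drinker animals above the Low Drinker median, and the groups overlapped for all 12.

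The number of calls rested in part on 1 animal. Without Low Drinker library 8, 7 members passed (1.40% of all tested genes were then called higher), and the same 7 passed without all 5 libraries named above (1.30%). These were Pcdhga1, Pcdhga2, Pcdhga3, Pcdhgb1, Pcdhgb2, Pcdhgb5 and Pcdhgb6, and the 3 beta genes, Pcdhgb7 and Pcdhga11 no longer passed. The mean log2 CPM of medium spiny and of cortical markers correlated with several members, as given further on. With both of these marker scores in the model 18 members passed, including all 12 (2.61% of all tested genes were then called higher).

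**Figure D2:**
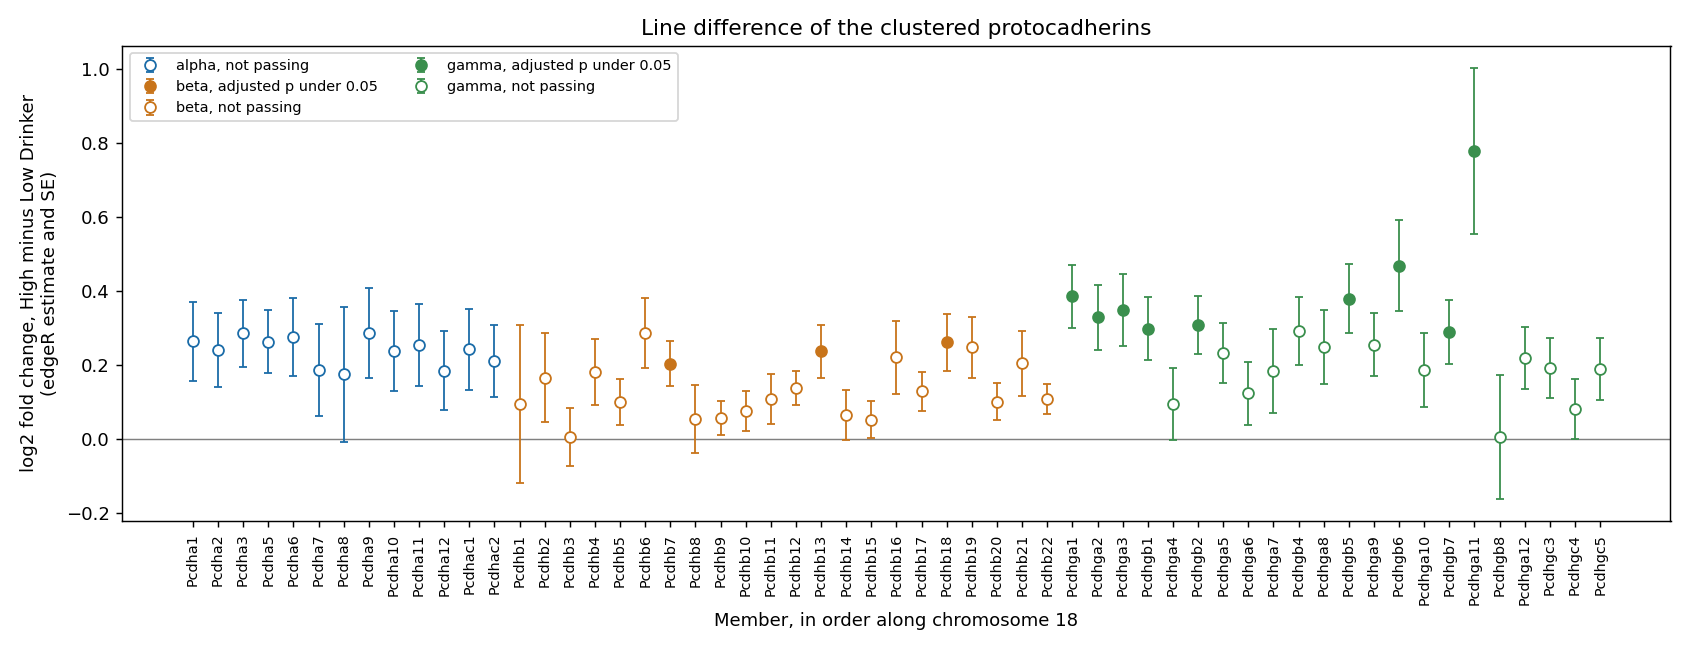
Log2 fold change between the lines (High minus Low Drinker, edgeR estimate with SE) for the 57 tested members in order along chromosome 18, filled where the adjusted p was under 0.05. All estimates lie above 0, the 12 filled points are beta and gamma genes, and Pcdhga11 is highest at 0.78.

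Among the gamma A genes, Pcdhga1 had the smallest adjusted p of all members. It holds the first variable exon of the gamma cluster. It ran from 4.14 CPM through a median of 6.23 to 11.1 CPM in High Drinker animals and from 1.39 through 5.09 to 7.36 CPM in the Low Drinker group. The ranges overlapped between 4.14 and 7.36 CPM, and 37 of 44 High Drinker animals lay above the Low Drinker median. The log2 fold change was 0.39 ± 0.08 (SE, edgeR adjusted p = 0.00234). Low Drinker library 8 gave the lowest value, and means within sheet sets 1 and 2 were 6.64 against 5.05 CPM and 6.29 against 4.92 CPM.

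Pcdhga2 and Pcdhga3 are the next A-type variable exons. Pcdhga2 ran from 4.33 through 9.27 to 14.02 CPM in the High Drinker group and from 1.30 through 7.40 to 13.5 CPM in the Low Drinker group (log2 fold change 0.33 ± 0.09, SE, adjusted p = 0.0173). Pcdhga3 ran from 4.65 through 11.6 to 17.3 CPM against 1.93 through 8.83 to 14.1 CPM (log2 fold change 0.35 ± 0.10, SE, adjusted p = 0.0234). For both genes the groups overlapped and their medians differed by more than 1 CPM, with 38 and 36 of 44 High Drinker animals above the Low Drinker median. The other 8 gamma A genes apart from Pcdhga11 did not pass, with log2 fold changes from 0.09 (Pcdhga4, adjusted p = 0.672) to 0.25 (Pcdhga9, adjusted p = 0.0738).

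The gamma B genes, whose variable exons lie interspersed with those of type A, had the largest share of calls, 5 of 7. Pcdhgb6 ran from 2.80 through 7.78 to 18.1 CPM in the High Drinker group and from 1.27 through 5.40 to 11.7 CPM in the Low Drinker group (log2 fold change 0.47 ± 0.12, SE, adjusted p = 0.0150). Pcdhgb5 ran from 2.61 through 4.89 to 8.55 CPM against 1.13 through 3.56 to 7.79 CPM (log2 fold change 0.38 ± 0.09, SE, adjusted p = 0.00871). Both genes overlapped between the groups, and the highest Pcdhgb6 values were all from High Drinker animals. Pcdhgb2 rose from a median of 4.98 to 5.98 CPM (log2 fold change 0.31, adjusted p = 0.0104), Pcdhgb1 from 5.99 to 7.17 CPM (0.30, adjusted p = 0.0279) and Pcdhgb7 from 6.02 to 7.34 CPM (0.29, adjusted p = 0.0401). Without Low Drinker library 8, Pcdhgb7 was at 0.25 with an adjusted p of 0.0604. Pcdhgb4 missed the threshold at 0.29 (adjusted p = 0.0522). Pcdhgb8, the annotated pseudogene, differed least (log2 fold change 0.00 ± 0.17, SE, adjusted p = 0.993), with 3.39 ± 1.58 CPM in the High Drinker group and 3.43 ± 1.42 CPM in the Low Drinker group (SD, n = 44 and 40).

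**Figure D3:**
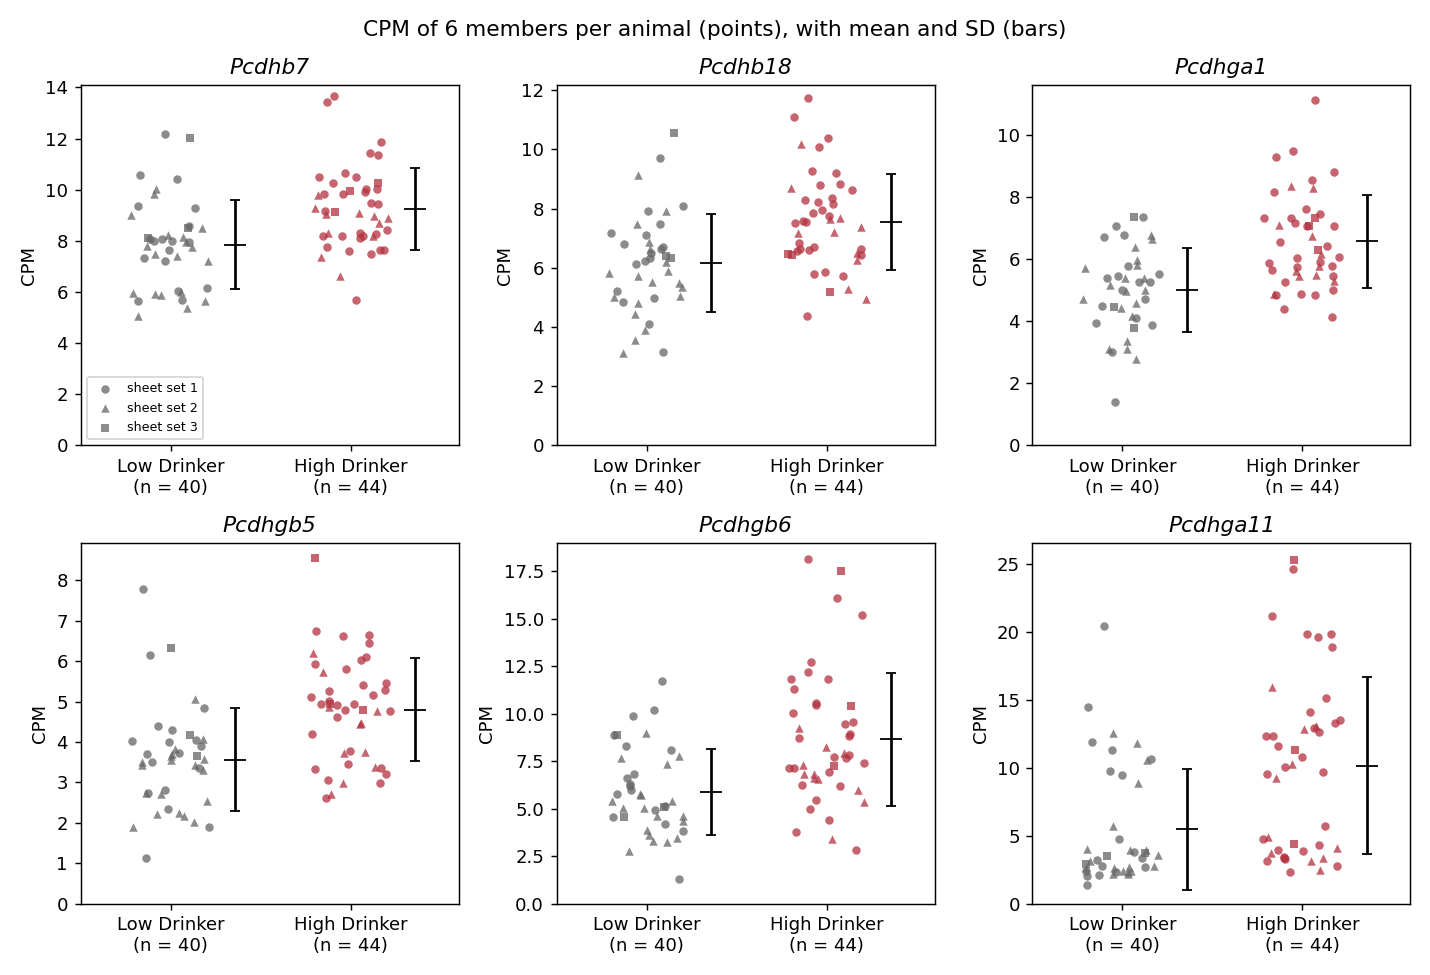
CPM per animal of Pcdhb7, Pcdhb18, Pcdhga1, Pcdhgb5, Pcdhgb6 and Pcdhga11 in 40 Low Drinker and 44 High Drinker animals, with symbols by sheet set and mean and SD as bars. The groups overlap in each panel, and the Pcdhga11 values leave a gap between 5.69 and 8.91 CPM.

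Pcdhga11, an A-type gene near the end of the variable part of the cluster, had the largest log2 fold change of all members and a different distribution. It ran from 2.29 through 10.2 to 25.3 CPM in High Drinker animals and from 1.39 through 3.45 to 20.5 CPM in the Low Drinker group. The log2 fold change was 0.78 ± 0.22 (SE, edgeR adjusted p = 0.0314), and it did not pass without Low Drinker library 8 (0.74, adjusted p = 0.0506). No animal lay between 5.69 and 8.91 CPM. Above this gap lay 26 of 44 High Drinker and 11 of 40 Low Drinker animals. Both sexes and both larger sheet sets held animals on each side in each line, for example 14 of 23 High Drinker males and 5 of 22 Low Drinker males above it. In sheet set 3, 2 of 3 High Drinker and 0 of 3 Low Drinker animals lay above.

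The gap was 0.64 wide on the scale of log2(CPM + 0.1), counting gaps with at least 5 animals on each side, and the next widest among members was 0.32, in Pcdhga8. Over all tested genes, 149 of 17071 (0.873%) had a gap at least as wide, and 55 of 11701 (0.470%) among genes with a mean of at least 5 CPM. The coefficient of variation of Pcdhga11 was 76.3%, the highest of the tested members, against a gamma median of 27.8%. Pcdhga11 also moved against some neighbours. After removing set, sex and line, its log2 CPM correlated with that of Pcdhgb6 at r = 0.79 and of Pcdhgb2 at r = 0.58, and with that of Pcdhgb8 at r = -0.57, of Pcdhga4 at r = -0.43 and of Pcdhb3 at r = -0.43 (n = 84 animals). Without the 5 libraries these were 0.80, 0.57, -0.69, -0.60 and -0.50. Of its 56 pairs with other members 13 were negative, which is 13 of the 35 negative pairs among all 1596 pairs. The 84 points share depth and dissection. Gm26672, which lies antisense to Pcdhga11, had a log2 fold change of 0.21 (adjusted p = 0.0623).

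In the beta cluster Pcdhb7, Pcdhb13 and Pcdhb18, which each hold their own exon and share none with another member, rose by similar amounts. Pcdhb18 ran from 4.39 through 7.54 to 11.7 CPM in the High Drinker group and from 3.11 through 6.21 to 10.6 CPM in the Low Drinker group (log2 fold change 0.26 ± 0.08, SE, adjusted p = 0.0393). Pcdhb13 ran from 6.59 through 9.41 to 14.4 CPM against 4.48 through 7.74 to 14.3 CPM (0.24 ± 0.07, adjusted p = 0.0433). Pcdhb7 ran from 5.70 through 9.11 to 13.7 CPM against 5.07 through 7.95 to 12.2 CPM (0.20 ± 0.06, adjusted p = 0.0393). All 3 genes overlapped between the groups over most of the range, with 36 to 40 of 44 High Drinker animals above the Low Drinker median. Without Low Drinker library 8 their log2 fold changes were 0.19 (Pcdhb7, adjusted p = 0.0761), 0.22 (Pcdhb13, adjusted p = 0.0774) and 0.23 (Pcdhb18, adjusted p = 0.0746), although that library did not hold the lowest value of any of them. Among the rest, Pcdhb6 had the largest log2 fold change at 0.29 (adjusted p = 0.0702), and Pcdhb3 was at 0.00 ± 0.08 (SE, adjusted p = 0.985), at 9.32 ± 2.37 CPM against 9.39 ± 1.999 CPM. Pcdhb20, the highest beta gene per kb, was at 0.10 (adjusted p = 0.271), and Pcdhb1, the lowest, at 0.09 ± 0.21 (adjusted p = 0.870).

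None of the 13 tested alpha genes passed, but their estimates lay close together, from 0.17 (Pcdha8) to 0.29 (Pcdha9). Pcdha3 came nearest, at 3.86 ± 0.935 CPM in the High Drinker group and 3.30 ± 1.02 CPM in the Low Drinker group (SD, log2 fold change 0.29 ± 0.09, edgeR adjusted p = 0.0559). At an unadjusted p under 0.05, 10 of 13 alpha, 12 of 22 beta and 16 of 22 gamma genes were higher and none was lower, against 8.53% higher and 9.5% lower among all tested genes. DESeq2 called 15 members higher, including the alpha genes Pcdha3 and Pcdha5, and 2.14% of all tested genes. Limma-voom called 15 higher, including Pcdha3, and 1.97% of all tested genes.

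None of the 5 C-type genes passed, although Pcdhgc5, Pcdhgc3 and Pcdhac2 had the highest read counts of all members. Pcdhgc5 ran from 60.8 through 128 to 166 CPM in the High Drinker group and from 21.5 through 117 to 169.6 CPM in the Low Drinker group (log2 fold change 0.19 ± 0.08, SE, adjusted p = 0.206). Pcdhac2 ran from 15.8 through 34.6 to 48.6 CPM against 3.61 through 30.7 to 47.9 CPM (0.21 ± 0.10, adjusted p = 0.235). The other C-type genes were at 0.24 (Pcdhac1, adjusted p = 0.221), 0.19 (Pcdhgc3, adjusted p = 0.180) and 0.08 (Pcdhgc4, adjusted p = 0.668). The groups overlapped over most of the range of Pcdhgc5 and of Pcdhac2.

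The sign of the estimate was positive for 57 of 57 tested members, against 50.6% of all tested genes, and the median log2 fold change was 0.24 for alpha, 0.12 for beta and 0.25 for gamma genes, against 0.001 over all genes. The members are not independent, since they share animals and 1 locus and varied together from animal to animal. Without the 5 libraries 53 of 57 estimates were positive, with medians of 0.19, 0.09 and 0.19. Within subsets of animals the medians were of like size, but few members passed. In sheet set 1 alone 55 of 57 were positive with a median of 0.24, in set 2 alone 54 of 57 with a median of 0.17, and 0 members passed in either. Of all tested genes 0.238% and 0.273% were called higher there. In females alone 56 of 57 were positive (median 0.20, 0 passed) and in males alone 56 of 57 (median 0.21), where Pcdhgb5 passed (0.48, adjusted p = 0.0465). Of all tested genes 0.115% were called higher in females alone and 0.36% in males alone.

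**Figure D4:**
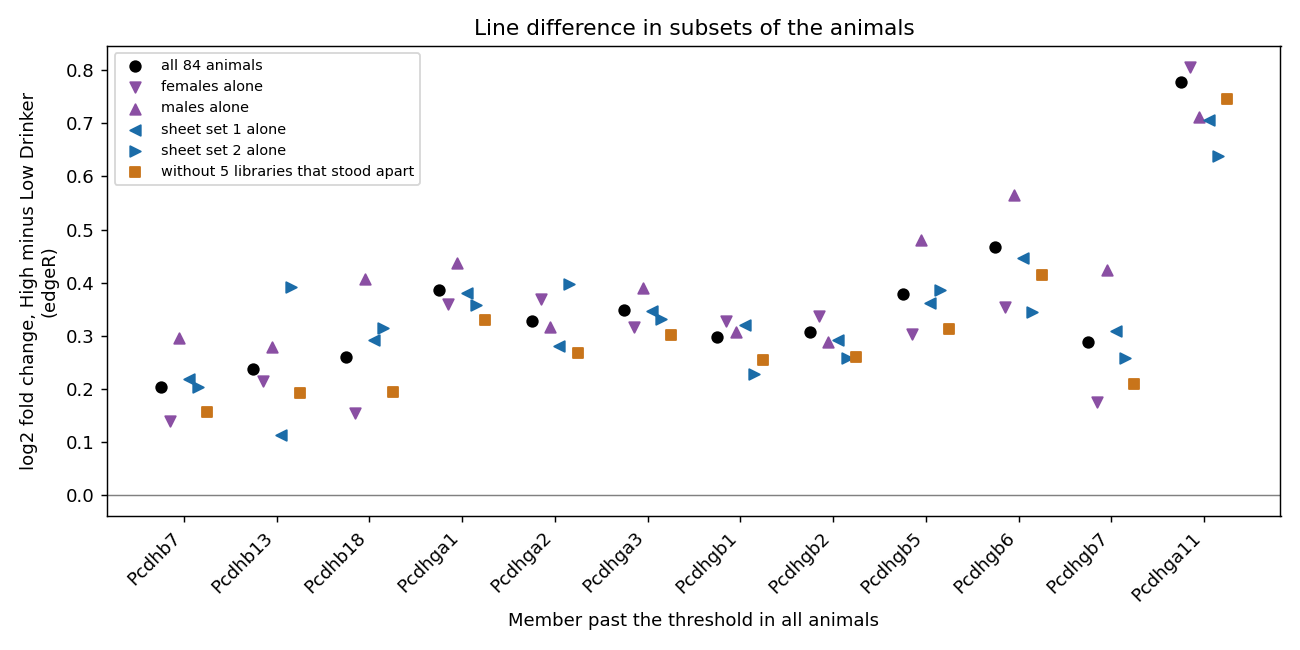
Log2 fold change (High minus Low Drinker, edgeR) of the 12 members that passed in all 84 animals, recomputed in females, males, sheet set 1, sheet set 2 and without 5 libraries. Every estimate lies above 0, and Pcdhga11 lies between 0.64 and 0.81 in each subset.

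No member differed between the sexes in edgeR (0 of 57, and 0 in DESeq2, against 0.0996% of all tested genes). At an unadjusted p under 0.05 there were 6, against 4.03% of all tested genes. Pcdha8 came nearest, at 0.579 ± 0.325 CPM in 23 High Drinker males against 1.07 ± 0.523 CPM in 21 High Drinker females, and 0.590 ± 0.309 CPM in 22 Low Drinker males against 0.768 ± 0.379 CPM in 18 females (log2 fold change, male minus female, -0.66, adjusted p = 0.303). No member had a line by sex interaction in edgeR or DESeq2 (0 of 57, and 0% of all tested genes), with 1 at an unadjusted p under 0.05 against 5.65% of all tested genes.

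The study's design names differential variance as a question. The spread between animals, as the residual SD of log2 CPM, had a median of 0.42 over the members against 0.26 over all tested genes. These medians were not matched for level or recomputed without the 5 libraries, and Low Drinker library 8 held the lowest value in 47 of 57 members. The residual SD was highest in Pcdhga11 (1.01), Pcdhb1 (0.87) and Pcdhgb8 (0.83), of which Pcdhb1 averaged only 0.502 CPM. The lowest coefficient of variation was 12.4%, in Pcdhb22, at 17.9 ± 2.02 CPM in the High Drinker group and 16.9 ± 2.22 CPM in the Low Drinker group. Between the lines, no member differed in spread by limma on absolute deviations (0 of 57, against 0.0117% of all tested genes), with 4 at an unadjusted p under 0.05 against 4.07% of all tested genes. The difference was negative, that is smaller spread in High Drinker animals, in 53 of 57 members against 62.5% of all tested genes. Without the 5 libraries it was negative in 36 of 57 against 51.4%.

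Members of a cluster varied together from animal to animal. After removing set, sex and line, the median Pearson r of log2 CPM over 84 animals was 0.73 among alpha genes (78 pairs), 0.51 among beta genes (231 pairs) and 0.68 among gamma genes (231 pairs). Between clusters it was 0.34 for alpha with beta, 0.54 for alpha with gamma and 0.51 for beta with gamma, and for members with all other tested genes -0.01. The medians were lower without the 5 libraries, at 0.55, 0.47 and 0.54 within the clusters and 0.18, 0.35 and 0.41 between them. The points share libraries, depth and dissection. The highest r of any pair was 0.94, for the C-type genes Pcdhac2 and Pcdhgc5 of different clusters (0.90 without the 5 libraries). Over all 10 pairs of C-type genes, within and between clusters, the median was 0.81 (0.69) and the lowest r was 0.70, for Pcdhac1 with Pcdhgc3. The members of highest r within gamma A were Pcdhga8 and Pcdhga9 (0.92), and within beta Pcdhb16 and Pcdhb19 (0.91).

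**Figure D5:**
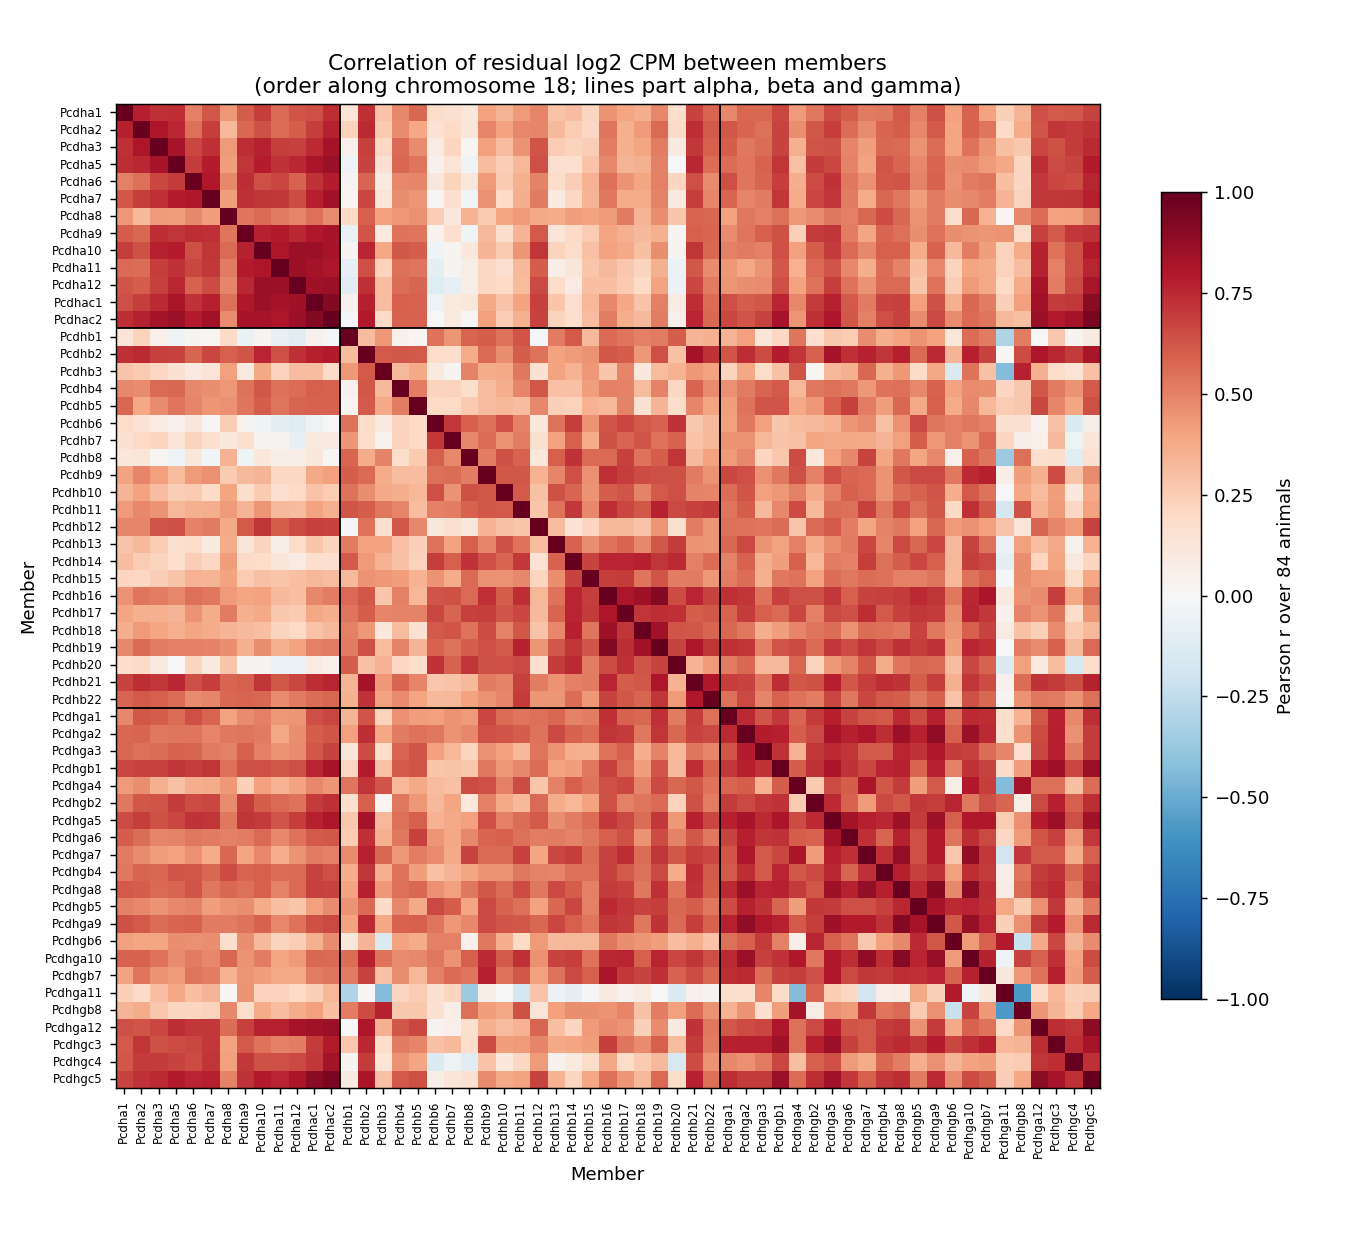
Pearson r between the residual log2 CPM of the 57 tested members over 84 animals, in order along chromosome 18, with lines between the alpha, beta and gamma clusters. The alpha block is the most uniform, Pcdhac2 and Pcdhgc5 pair across clusters at 0.94, and the row of Pcdhga11 runs from -0.57 with Pcdhgb8 to 0.79 with Pcdhgb6.

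The clusters also differed in their median correlation with neuron marker genes, with wide ranges within clusters. Set, sex and line were removed from the log2 CPM of members and markers alike. Against the mean of 5 cortical glutamatergic markers, the median r was 0.52 over 13 alpha genes, -0.25 over 22 beta genes and 0.01 over 22 gamma genes. Single genes ranged from 0.13 to 0.66 in alpha, from -0.59 to 0.33 in beta and from -0.23 to 0.51 in gamma. Without the 5 libraries the medians were 0.54, -0.33 and -0.11. Against the mean of 9 medium spiny markers the median r was -0.32, 0.37 and 0.12 (n = 84 animals, -0.46, 0.40 and 0.13 without the 5 libraries). Pcdha12 had the lowest r with the medium spiny markers (-0.46) and Pcdhb20 the highest (0.69). The 12 members that rose ranged widely in their r with the medium spiny markers. The beta genes Pcdhb7, Pcdhb13 and Pcdhb18 were at 0.53, 0.49 and 0.46. Among gamma genes Pcdhgb7 was at 0.46, Pcdhgb5 at 0.37, Pcdhga1 and Pcdhga2 at 0.26 and Pcdhgb6 at 0.22, whereas Pcdhga3 and Pcdhgb2 were at -0.01, Pcdhgb1 at -0.05 and Pcdhga11 at -0.16. The medium spiny sum had a median of 3485 CPM in the High Drinker group and 3080 CPM in the Low Drinker group, with 0 of 9 markers called, and the cortical sum 1509 against 1558 CPM, with 0 of 5 called. What part these markers have in the line difference of the members was not tested beyond the model that includes them, in which Pcdhb7 was at 0.19 (adjusted p = 0.0207), Pcdhb18 at 0.23 (adjusted p = 0.0333) and Pcdhga11 at 0.76 (adjusted p = 0.0231).

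Genes known to act on the clusters were measured beside them. CTCF and cohesin loop distant enhancers to the promoter that is used, and DNA methylation and SMCHD1 keep unused promoters silent. Among all tested genes 1.86% were called higher and 2.08% lower, which is the share to set beside each list here. Of 24 such regulators 1 rose and 0 fell, and 1 call in a list of this size is no result about the list. At an unadjusted p under 0.05 in edgeR, 5 were higher and 0 lower, against 8.53% higher and 9.5% lower among all tested genes. The estimate was positive for 20 of 24, against 50.6% of all tested genes. Smc1a, a cohesin subunit, was at 103 ± 7.41 CPM in the High Drinker group and 98.0 ± 7.23 CPM in the Low Drinker group (SD, log2 fold change 0.08, edgeR adjusted p = 0.0411, 36 of 44 above the Low Drinker median). Ctcf was at 0.07 (adjusted p = 0.106), Rad21, another cohesin subunit, at 0.02 (adjusted p = 0.834), Smchd1 at 0.07 (adjusted p = 0.342) and the methyltransferase gene Dnmt3b at -0.06 (adjusted p = 0.777). Of 18 genes for partners of the proteins inside the cell, 0 rose and 1 fell, Brk1, a subunit of the WAVE complex that drives actin branching, at 172 ± 19.2 against 188 ± 28.4 CPM (SD, log2 fold change -0.12, adjusted p = 0.0414). Of 12 non-clustered protocadherins, which lie outside the clusters, 0 passed in edgeR (1 at an unadjusted p under 0.05), with log2 fold changes from -0.08 to 0.17. Of 43 tested genes within 1 Mb of the clusters that are no members, the non-clustered Pcdh1 and Pcdh12 among them, 0 rose and 3 fell, namely the monocyte receptor gene Cd14 (-0.31, adjusted p = 0.00799), the histidyl-tRNA synthetase gene Hars (-0.11, adjusted p = 0.0150) and the zinc finger gene Zmat2 (-0.17, adjusted p = 0.00112), all on the side of the alpha cluster. At an unadjusted p under 0.05 in edgeR, 1 of the 43 was higher and 9 were lower, against 8.53% and 9.5% of all tested genes. These 9 included genes on the side of the gamma cluster, such as Hdac3 (-0.07, adjusted p = 0.0656). The neighbours' median log2 fold change was -0.01.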

How the data were processed

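The deposited values are unnormalized read counts for each gene and animal, made from amplified cDNA of hand-dissected ventrolateral striatum, per the labels' protocols. FastQC, STAR, featureCounts of Subread and edgeR were used with mm10, per the submitters' processing notes. Tool versions and how strand and multi-mapped reads were handled are not given in the sources, and reads of similar variable exons may be split or lost. Exon coordinates are those of the deposited table. Symbols came from GENCODE M21 (42548 of 43629 genes). ENSMUSG00000007440, one of a pair of genes named Pcdha11 there, is called Pcdha10 after RefSeq, whose start lies 117 bases away. No sequence of the clusters is shown.

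Line, sex and their interaction were tested in R 4.3.3 with edgeR 4.0.16 (TMM, filterByExpr, quasi-likelihood F-test, terms for set, sex and line) with adjustment over 17071 genes. For spread, limma 3.58.1 was fitted to the absolute deviation of each log2 CPM (prior count 2) from its line-by-sex median. Sheet sets are an inference from the numbers that end the titles. Alternatives used RLE normalization, no filter, DESeq2 1.42.0, limma-voom, no set term, single sets and sexes, 5 surrogate variables (sva 3.50.0), marker scores, and fewer libraries. Python 3.11.15, numpy 2.4.6, pandas 2.3.3 and matplotlib 3.10.9 made the descriptions and plots. The members and gene lists were chosen with earlier results of these data known. Named were members past a threshold, the highest and lowest per kb of each cluster, the C-type genes, Pcdhga11, Pcdhb7, Pcdhb13 and Pcdhb18, and genes of the other lists that passed. Pcdha3, Pcdha5, Pcdha9, Pcdha12, Pcdhb3, Pcdhb6, Pcdhb9, Pcdhb16, Pcdhb17, Pcdhb19, Pcdhb22, Pcdhga4, Pcdhga8, Pcdhga9, Pcdhgb4, Pcdhgb8 and the genes named for their exons were added after their values were seen.

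The tests were tested on simulated data of 17071 genes with 50 changed genes per fold. Folds of 1.25, 1.5, 2 and 4 were recovered for 68%, 80%, 100% and 100% in the line test (9 false of 183 calls), 76%, 90%, 96% and 100% in the sex test, 36%, 68%, 90% and 98% in the interaction test, and 0%, 0%, 18% and 84% in the spread test. The changed genes were drawn at random from all tested genes and varied independently, without set effects or an outlying library. The members vary together and had a median residual SD of 0.42 against 0.26, so these rates do not give the power for the members.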

Additional observations from a re-analysis of the deposited data

How the results depend on the processing

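Against 12 members higher and 0 lower in High Drinker animals, the count of higher members was 0 in sheet set 1 alone, 0 in sheet set 2 alone, 0 in females alone and 1 in males alone, all with fewer animals. Of all tested genes, 0.238%, 0.273%, 0.115% and 0.36% were called higher in these 4 subsets, against 1.86% in all animals. The count of higher members was 7 without the 5 libraries that stood apart and 7 without Low Drinker library 8 (an alternative chosen after seeing the data). It was 34 with 5 surrogate variables, where 6.51% of all tested genes were called higher against 1.86% without them. The cause was not tested. The other 7 alternatives gave 8 to 18 higher members, with 0.803% to 2.61% of all tested genes called higher. In all 14 alternatives 0 members fell. Without sheet set 3, 12 members passed (1.70% of all tested genes were called higher), but only 10 of the first 12 were among them. Pcdhb13 and Pcdhga11 no longer passed there, and Pcdhb19 and Pcdhgb4 newly passed. With no low-count filter 8 of the 12 passed, with 0 beta genes (0.803% of all tested genes were called higher). The estimate reversed for Pcdhb1 in limma-voom (-0.012), in females alone (-0.27) and without the 5 libraries (-0.016), and for Pcdhgc4 in sheet set 2 alone (-0.00041); neither gene passed in any of these, and the cause was not tested. Over 20 named members and all alternatives, 210 estimates kept their direction and side of the threshold, 63 no longer passed, 3 newly passed and 4 reversed. Full exon length in place of unshared bases gave 0.964 CPM per kb for alpha and 2.88 for gamma, since shared exons drew no reads. Counts for sex, interaction and spread stayed at 0 under their 5, 5 and 4 alternatives. No paired analysis was possible, since each library is 1 animal and the labels link no High Drinker animal to a Low Drinker animal. The labels give no replicate numbers, and the library numbers used here follow the order of the animals within each group. Depth limits Pcdha4, Pcdhb1 and Pcdha8, which averaged below 1 CPM.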
